A study of Bos taurus with 28 samples.

Results

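Liver gene expression was compared between cows given progesterone alone and cows given no hormone. The comparison rests on 14 of the 28 arrays held in the deposited series, 7 labelled as liver exposed to progesterone (P4T) and 7 labelled as control liver (CO). The arrays were chosen by their labels alone. All the cows were non-lactating, ovariectomized Holsteins, so the CO cows had no ovarian source of steroids and no replacement, and the P4T cows had intravaginal progesterone inserts for 14 days. The labels differ on the route, since the source name of the P4T samples calls it intradermal. Each array holds mRNA of a percutaneous liver biopsy, measured on the Affymetrix Bovine GeneChip. The 2 other groups were 7 arrays with an estradiol ear implant (E2T) and 7 with the implant and the progesterone inserts together (E2P4T), and they were used only where stated. For CO and E2T the study describes more arrays than the series holds. The study moved the same cows through the treatments in a Latin square, but the labels give neither cow nor period. The arrays were therefore treated as separate samples, and the ages of the cows are not in the labels.

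Progesterone acts in its classical target tissues through a nuclear receptor, PGR, which binds DNA when the hormone is bound. It is also bound by membrane-associated proteins such as PGRMC1, and at high concentration it can occupy the glucocorticoid receptor. The liver is the main organ that removes progesterone from blood, by reduction with aldo-keto reductases, hydroxylation by cytochromes P450, and conjugation.

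The labelled tissue was checked against hepatocyte markers. The mean log2 signal of 20 hepatocyte genes, among them albumin (ALB) and transferrin (TF), lay between 15.7 and 16.2 on the CO arrays and between 15.4 and 16.1 on the P4T arrays, far above the array medians of 7.55 to 8.78. P4T replicate 4 (P4T 4) stood apart from the rest. Its hybridisation spikes, control transcripts added at fixed amounts before hybridisation, had a mean log2 signal of 17.8, against 13.9 to 14.9 on the other 6 P4T arrays and 14.7 to 16.7 on the CO arrays. Its median log2 signal was 8.78, while the other P4T arrays spanned 7.55 to 7.75 and the CO arrays 7.57 to 8.33. Its median correlation with the other 13 arrays was 0.767, and the other arrays had 0.832 to 0.904. The study set aside an outlier array of the progesterone group and another of the combined group before its own tests, but the labels do not say which, and whether they are among the arrays analysed here is not known. Within CO, CO 3 had the highest spikes and CO 3 and CO 7 the highest medians. Of 6 array-wide measures, none passed 0.05 between the groups with all arrays by two-sided exact permutation tests (p = 0.081 to 0.776). Without P4T 4, the spikes (exact p = 0.0058, adjusted 0.017) and the median log2 signal (exact p = 0.033, adjusted 0.033) were lower in P4T. So was the percent of the summed signal held by the brightest 1% of probe sets (exact p = 0.0035, adjusted 0.017). The 10th percentile of log2 signal (exact p = 0.024, adjusted 0.033) and the median on the linear scale (exact p = 0.031, adjusted 0.033) were lower too. The percent of probe sets with a signal under 50 was higher in P4T (exact p = 0.019, adjusted 0.033). Apart from these 6 measures, the hepatocyte marker mean was lower in P4T (exact p = 0.020, and 0.029 without P4T 4, both unadjusted). The means of erythrocyte, of leukocyte and Kupffer cell, and of kidney markers had exact p = 0.473 to 0.759 with all arrays. The main counts below, and other values where stated, are therefore given with and without P4T 4. Values given once come from all arrays of the comparison unless stated. The part of these array-wide differences in any result was not tested except where a value without the arrays or after quantile normalization is given.

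**Figure D1:**
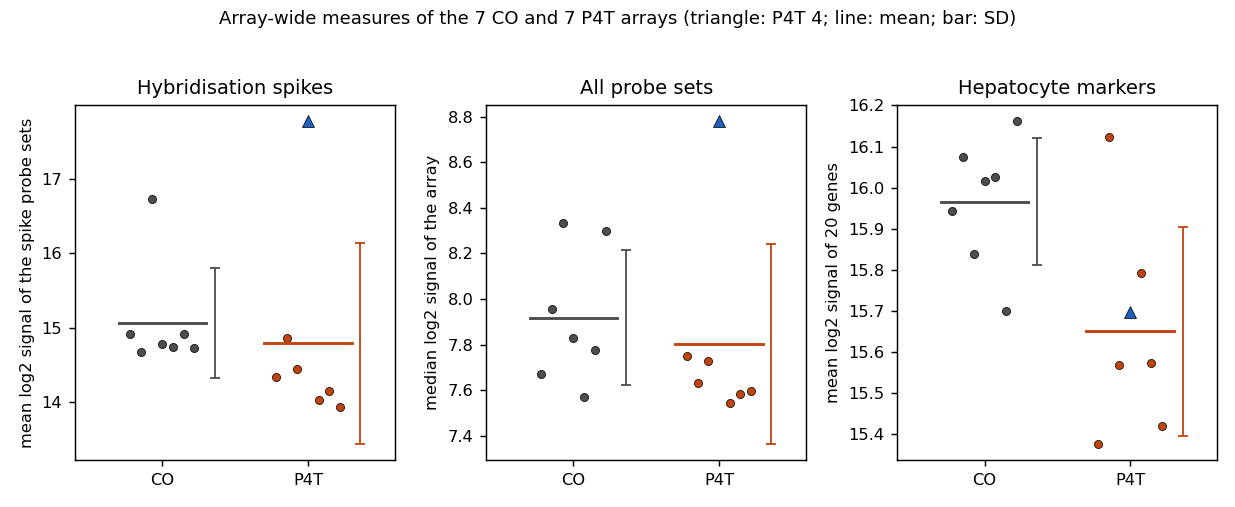
Mean log2 signal of the hybridisation spikes, median log2 signal of all probe sets, and mean log2 signal of 20 hepatocyte markers on the 7 CO and 7 P4T arrays, with group mean and SD. P4T 4, the triangle, sits at 17.8 for the spikes and 8.78 for the median, above every other array, while its hepatocyte mean of 15.7 lies among the other P4T arrays.

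No probe set passed the adjusted threshold between P4T and CO. Of 24016 probe sets tested with limma, 0 had an adjusted p under 0.05, and the lowest adjusted p was 1.00. With P4T 4 left out there were again 0, with a lowest adjusted p of 0.535. After quantile normalization the lowest adjusted p was 0.083 with all arrays and 0.265 without P4T 4. Both belonged to 1 dim probe set with no symbol, whose log2 difference on the deposited scale was 3.45. All genes below are therefore described by their values, and unadjusted p-values from the same fit are given only to order them. At an unadjusted p under 0.05 with a change of at least 1.25-fold there were 751 probe sets, or 3.13%. Of these, 173 (0.72%) were higher and 578 (2.41%) lower in P4T. Leaving out P4T 4 raised these counts to 374 higher (1.56%) and 1479 lower (6.16%). With no difference at all, 1200.8 probe sets would be expected at an unadjusted p under 0.05. There were 751 with all arrays, 1853 without P4T 4, and 1194 without it after quantile normalization. Probe sets share arrays, and these totals were not tested. The split between higher and lower depended on the scaling, and scaling to a common distribution or median evens the directions by its construction. The median log2 difference of all probe sets was -0.06, and -0.15 without P4T 4. After quantile normalization the split was 365 higher (1.52%) and 369 lower (1.54%), after centring on the median 302 and 456, and with quantile normalization and P4T 4 left out 560 (2.33%) and 634 (2.64%).

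The direction of the small differences also depended on how bright a gene was. Among the 9155 genes with a symbol, each represented by its brightest probe set, 56 (0.612%) were higher and 162 (1.77%) lower by the unadjusted rule, and without P4T 4 the numbers were 202 (2.21%) and 458 (5.0%). In the dimmest 1831 genes the median log2 difference was -0.30 with all 14 arrays and -0.55 without P4T 4, while in the brightest 1831 it was 0.02 and 0.09. Without P4T 4 the brightest set held 101 higher and 28 lower genes, and the dimmest set 13 higher and 167 lower. With quantile normalization of those 13 arrays the same sets held 60 and 40, and 45 and 56. Dim genes were thus lower, and bright genes slightly higher, on the scale as deposited.

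The leading higher genes were taken by lowest unadjusted p among genes above the median signal that also passed without P4T 4. They were PILRA, RHNO1, MRPL52, OAT, PHF3, GLDC, ASF1A, RNF14, MRPL49, MFF, NSA2 and EBPL, 12 of 18 eligible genes. PILRA, an inhibitory receptor of myeloid cells, had a lowest, median and highest log2 signal of 9.34, 10.12 and 10.50 in CO and of 10.38, 10.71 and 11.11 in P4T. Of the 7 P4T arrays, 6 lay above every CO array, and the difference was 0.68 ± 0.21 (log2, SE; unadjusted p = 0.0037). RHNO1, which takes part in the DNA damage checkpoint, ran from 8.10 over 8.50 to 9.37 in CO and from 9.04 over 9.56 to 10.27 in P4T. It was higher by 0.85 ± 0.27, and 5 P4T arrays lay above every CO array. In bulk liver, more cells of a type and more RNA per cell cannot be told apart, which touches PILRA in particular since it is a leukocyte gene. The 22 leukocyte and Kupffer cell markers measured had a median log2 difference of 0.14, and their mean log2 signal spanned 9.07 to 10.09 in CO and 9.32 to 9.86 in P4T.

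Some of the leading higher genes encode mitochondrial proteins. MRPL52 and MRPL49 belong to the mitochondrial ribosome. MRPL52 spanned 9.62 to 10.97 in CO (median 10.16) and 10.39 to 10.91 in P4T (median 10.73), so that all 7 P4T arrays exceeded the CO mean while 1 CO array exceeded them all. MRPL49 had 5 P4T arrays above every CO array, at medians of 10.19 in CO and 10.74 in P4T, a difference of 0.43 ± 0.19. MFF, an outer membrane protein needed for mitochondrial fission, was higher by 0.46 ± 0.21.

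Ornithine aminotransferase (OAT), the mitochondrial enzyme that links ornithine to glutamate, ran from 11.32 over 12.22 to 12.91 in CO and from 11.98 over 13.12 to 14.55 in P4T. Its difference was 0.85 ± 0.33 with all arrays and 1.03 ± 0.31 without P4T 4, which was the lowest P4T array. GLDC, the decarboxylase of the glycine cleavage system, had medians of 8.15 in CO and 9.27 in P4T, and P4T 4 was its highest array at 10.87. GLDC was the only leading gene whose direction differed between the arrays numbered 1 to 4 (1.90) and those numbered 5 to 7 (-0.22). Both sets of arrays gave 1 sign for 23 of the 24 leading genes, but the genes were chosen on these same arrays. A shared sign is largely set by that choice and is no independent evidence. The numbers are those of the labels and mark no stated batch.

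Of the other leading higher genes, ASF1A, a histone chaperone, was higher by 0.68 ± 0.28. PHF3, a protein bound to RNA polymerase II, was higher by 1.14 ± 0.44, but by 0.53 without P4T 4, CO 3 and CO 7. RNF14, a ubiquitin ligase also known as a coactivator of the androgen receptor, spanned 10.19 to 11.64 in CO and 11.23 to 11.97 in P4T. NSA2, a ribosome assembly factor, was higher by 0.64 ± 0.29. EBPL, a homologue of a sterol isomerase, was higher by 1.07 ± 0.48, and CO 3 at 5.63 was far below the other CO arrays. The second probe sets of PILRA (-0.77), RNF14 (-0.59) and PHF3 (-0.06), all dimmer, did not share these directions, whereas that of MFF (0.26) did.

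The leading lower genes were MAP3K14, TXNDC11, PPP4C, TRAF4, HEXIM2, PC, MUSTN1, B9D2, RENBP, TMEM214, PLK1 and SLC7A1, 12 of 54 eligible. MAP3K14, the kinase that starts the alternative pathway of NF-kappa B, spanned 8.39 to 10.51 in CO with a median of 9.09, and 6.04 to 9.23 in P4T with a median of 8.27. All 7 P4T arrays lay below the CO mean and 5 below every CO array. The difference was -1.75 ± 0.49 (log2, SE; unadjusted p = 0.0018), and -1.52 without P4T 4. The 7 P4T arrays fell into 4 between 8.27 and 9.23 and 3 near 6, of which P4T 4 was 1. TRAF4, an adaptor of TNF receptor family signalling, had medians of 10.80 in CO and 9.96 in P4T. P4T 4, at 10.78, was its highest P4T array, and the difference grew from -0.69 to -0.81 without it.

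Pyruvate carboxylase (PC), which makes oxaloacetate for gluconeogenesis and the TCA cycle, ran from 11.84 over 12.35 to 12.79 in CO and from 11.05 over 11.53 to 12.42 in P4T. Of the P4T arrays 4 lay below every CO array, and the difference was -0.67 ± 0.24 with P4T 4 and -0.65 ± 0.24 without it. Its other probe sets, dim by comparison, differed by -0.65 and -0.61.

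RENBP, an epimerase of amino sugar metabolism, and HEXIM2, an inhibitor of the elongation kinase P-TEFb, did not overlap between groups once P4T 4 was left out. RENBP then spanned 9.26 to 10.61 in CO and 8.54 to 9.23 in P4T, while P4T 4 alone stood at 10.33. HEXIM2 spanned 8.44 to 10.04 in CO and 7.81 to 8.38 in the other P4T arrays. TXNDC11, an endoplasmic reticulum protein with thioredoxin domains, spanned 10.82 to 11.83 in CO and 10.42 to 11.09 in P4T, and PPP4C, the catalytic subunit of phosphatase 4, differed by -0.65 ± 0.22. For both, all 7 P4T arrays lay below the CO mean. PLK1, a mitotic kinase, had medians of 9.36 in CO and 8.23 in P4T, and its difference grew from -1.09 to -1.37 without P4T 4, which at 9.70 was its highest P4T array. SLC7A1, a carrier of arginine, lysine and ornithine, was at -0.88 ± 0.33, and at -0.80 without P4T 4. TMEM214, a membrane protein of the endoplasmic reticulum, was at -0.60 ± 0.22, and at -0.48 without P4T 4. B9D2, a protein of the ciliary transition zone, was at -0.89 ± 0.32, and at -0.72 without P4T 4. MUSTN1, a nuclear protein of muscle and skeleton, was at -1.02 ± 0.36, and at -0.82 without P4T 4.

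**Figure D2:**
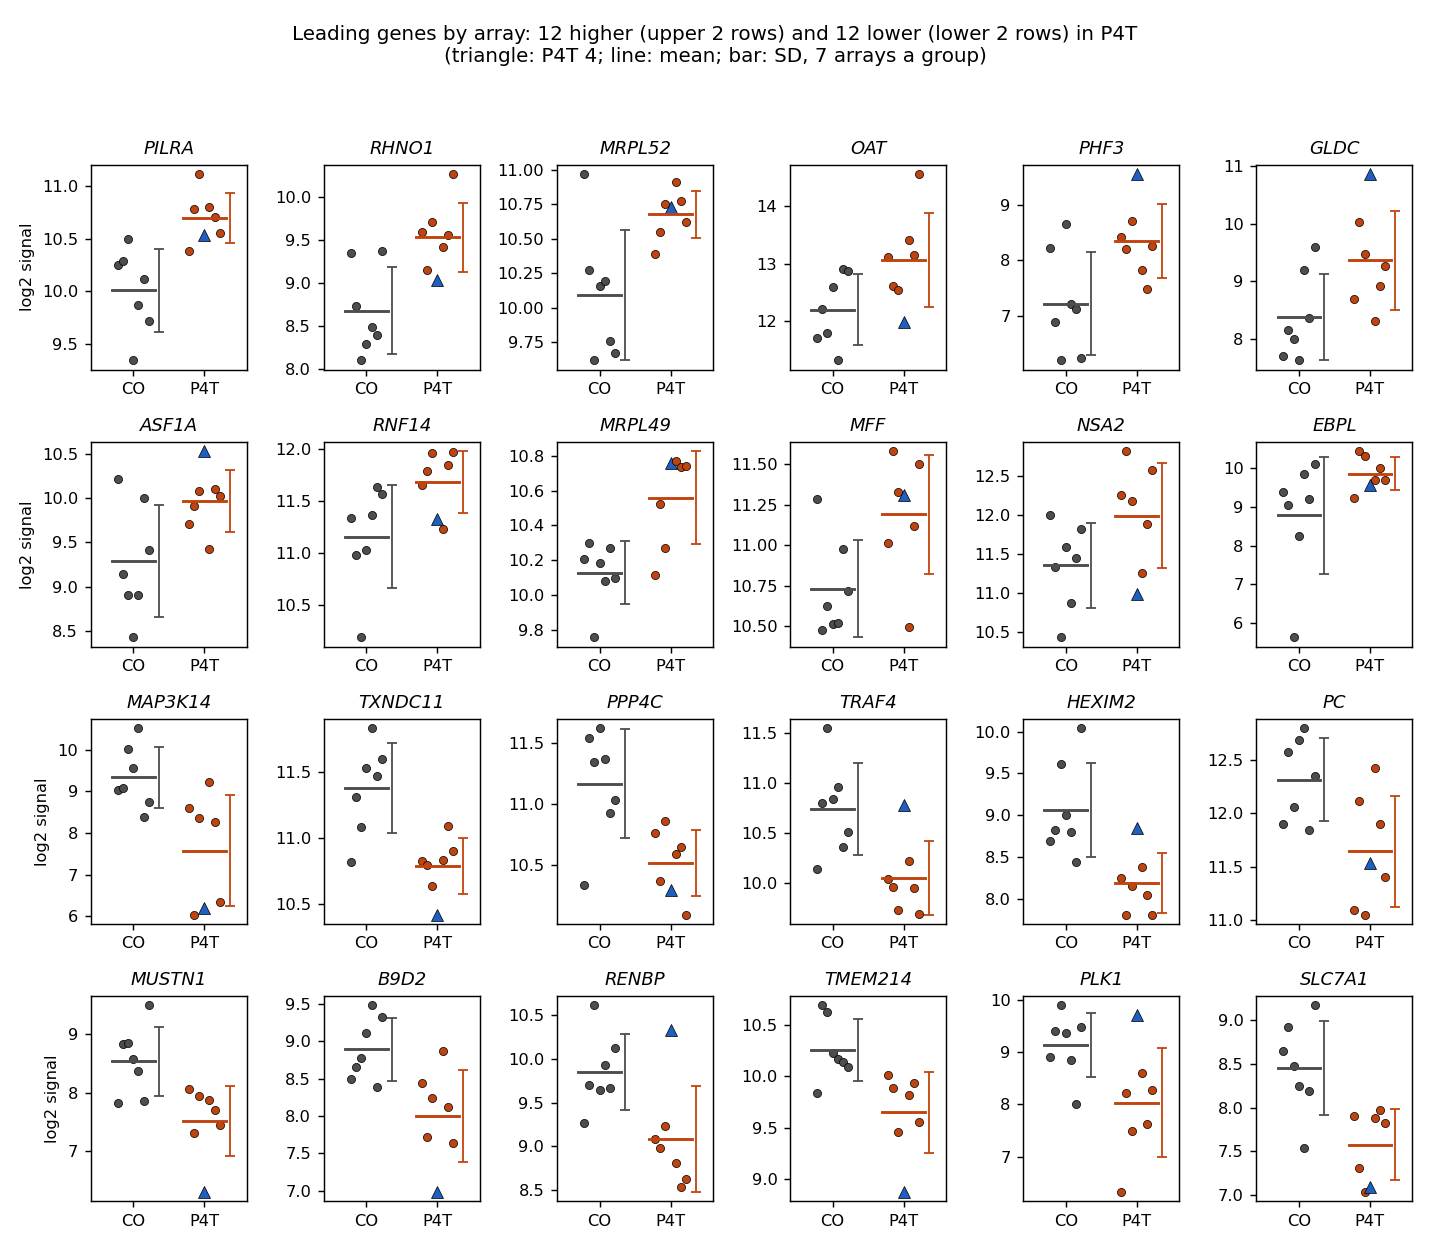
Log2 signal of the 24 leading genes on each of the 7 CO and 7 P4T arrays, the 12 higher genes in the upper rows and the 12 lower genes in the lower rows, with group mean and SD and P4T 4 as a triangle. The groups overlap in every panel; in RENBP and HEXIM2 the overlap is P4T 4 alone, and in MAP3K14 the P4T arrays split between values near 6 and values above 8.

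Genes whose groups did not overlap were few. Of the 9155 genes, 1 (0.0109%) had every P4T array above every CO array and 1 (0.0109%) had every P4T array below. The lower gene was LAD1, a protein of the anchoring filaments of basement membranes. It ran from 7.03 over 7.74 to 7.86 in CO and from 2.43 over 4.67 to 6.34 in P4T, a difference of -2.97 ± 0.63 (unadjusted p = 0.00012), and it is on the study's own progesterone list, which was chosen on these samples. The higher gene was GHRHR, the receptor of growth hormone-releasing hormone, at 1.63 to 5.09 in CO and 5.21 to 7.14 in P4T. Their mean log2 signals of 6.01 and 4.83 were below the median of 7.66 over probe sets, where a log2 scale stretches differences, and with 50 added to each signal the GHRHR difference of 2.20 came to 0.80. Without P4T 4, 7 genes (0.0765%) were above and 6 (0.0655%) below without overlap. The 6 P4T arrays were higher for PFDN2, OLA1, EMC7, ALG14, ASRGL1, LOC286807 and GHRHR, and lower for LAD1, RENBP, HEXIM2, SLC37A2, BTNL9 and AKR1C4. These names, other than LAD1, GHRHR, RENBP and HEXIM2, were chosen after their values were seen.

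The largest differences of all lay in dim probe sets. Among those with an unadjusted p under 0.05, the 5 lowest ran from -4.01 to -3.04 and included FAM171B at -3.04, the other 4 having no symbol. Their P4T medians lay between 1.00 and 3.63 on the log2 scale. The 5 highest ran from 2.20 to 3.45, with TMEM163 at 2.28, GHRHR at 2.20 and MEP1B at 2.20. With 50 added to each signal the same 10 probe sets had differences of -1.51 to 1.00.

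Receptors and binders of progesterone showed no gene past the unadjusted rule with all arrays, in 6 genes measured, with a median of -0.01. PGR ran from 6.04 over 7.52 to 7.82 in CO and from 4.33 over 5.82 to 8.99 in P4T. The highest of these was P4T 4, and the difference of -0.90 ± 0.61 became -1.35 ± 0.53 (unadjusted p = 0.018) without it. PGR was then the 1 lower gene of 6, with 0 higher, beside 5.0% lower and 2.21% higher of all genes. With quantile normalization and P4T 4 left out, 0 of the 6 passed in either direction. The PGR signals of both groups were dim. PGRMC1, the membrane-associated binder, spanned 12.14 to 14.84 in CO and 12.11 to 14.46 in P4T, a difference of 0.14 ± 0.37. P4T 4 was its lowest P4T array, and the difference was 0.40 without it. The other PGRMC1 probe set, which was dimmer, differed by -0.72, and by -0.32 without P4T 4. The glucocorticoid receptor, NR3C1, had medians of 10.30 in CO and 10.36 in P4T, and its difference was 0.34 ± 0.22. FKBP5, a steroid-responsive chaperone, was dim and variable, at 3.31 to 5.19 in CO and 2.14 to 7.43 in P4T. Of 16 glucocorticoid- and progestin-responsive genes, 0 passed in either direction. The lowest p among them belonged to IGFBP1, a secreted binder of insulin-like growth factors, at 1.16 ± 0.64. All 7 P4T arrays of IGFBP1 exceeded the CO mean, but a CO array at 9.41 was above every P4T array.

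The enzymes that remove progesterone were not past the unadjusted rule either, at 0 of 24 with a median of -0.00. CYP3A28, a cytochrome P450 that hydroxylates steroids, had the same median of 15.15 in both groups, and its difference was -0.07 ± 0.25. AKR1C4, an aldo-keto reductase acting on steroids, spanned 16.77 to 17.80 in CO and 16.47 to 16.61 in the P4T arrays other than P4T 4, which stood at 18.26. Its difference without P4T 4 was -0.49 ± 0.24, and after quantile normalization of those arrays it was -0.08. CYP2C87 (0.62 ± 0.26) and UGT1A6 (0.52 ± 0.24), the latter a glucuronosyltransferase, passed the unadjusted rule only with P4T 4 left out, so that 2 of 24 were then higher and 0 lower, beside 2.21% and 5.0% of all genes.

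Genes of oxidative phosphorylation gave different counts with and without P4T 4. Their products form complexes I to IV of the respiratory chain and the ATP synthase. The mean log2 signal of the 76 genes measured was 11.28 on P4T 4, below the other 13 arrays, while the other 6 P4T arrays spanned 12.60 to 12.95 and the CO arrays 11.89 to 12.87 with a median of 12.45. P4T 4 was the lowest P4T array in 68 of the 76 genes and lay below every CO array in 51. CO 3, the CO array with the highest spikes, was the lowest CO array.

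With all 14 arrays 0 of the 76 genes passed the unadjusted rule in either direction, and their median difference was 0.07. Without P4T 4 there were 19 higher and 0 lower, 25.0% beside the 2.21% of all genes that were higher, and the median was 0.30 beside -0.07 for all genes. With quantile normalization of those 13 arrays 13 were higher and 0 lower (17.1% beside the 2.53% higher and 2.62% lower of all genes), and with CO 3 and CO 7 left out as well, a setting chosen after seeing the data, 5 were higher and 0 lower (6.58% beside 2.08% higher and 2.89% lower). None of these genes had an adjusted p under 0.05 in any of the 4 settings. Leaving out CO 3 alone turned the median to -0.03, and leaving out any other single array but P4T 4 kept it between 0.01 and 0.12.

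Complex I, the NADH dehydrogenase, had 10 of 37 genes higher without P4T 4, with a median of 0.27, complexes II, III and IV 3 of 23 (0.22), and the ATP synthase 6 of 16 (0.40), beside 2.21% of all genes and 5.52% of the 1831 brightest. NDUFB6, an accessory subunit of complex I, spanned 9.59 to 11.12 in CO (median 10.74) and 11.06 to 11.54 in the other P4T arrays, while P4T 4 stood at 9.23. Its difference was 0.45 ± 0.31 with P4T 4 and 0.75 ± 0.21 (unadjusted p = 0.0018) without it. ATP5MC3, a subunit of the membrane ring of the ATP synthase, had a median of 12.88 in CO and spanned 12.86 to 13.68 in the other P4T arrays, with P4T 4 at 11.25, and its difference was 0.65 ± 0.20 without P4T 4. UQCRB, of complex III, was at 0.75 ± 0.28 and COX6A1, of cytochrome oxidase, at 0.55 ± 0.21 without P4T 4. UQCRB, COX6A1, ATP5MC3 and NDUFC1 are on the list the study chose on these samples and are no independent evidence of its direction.

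**Figure D3:**
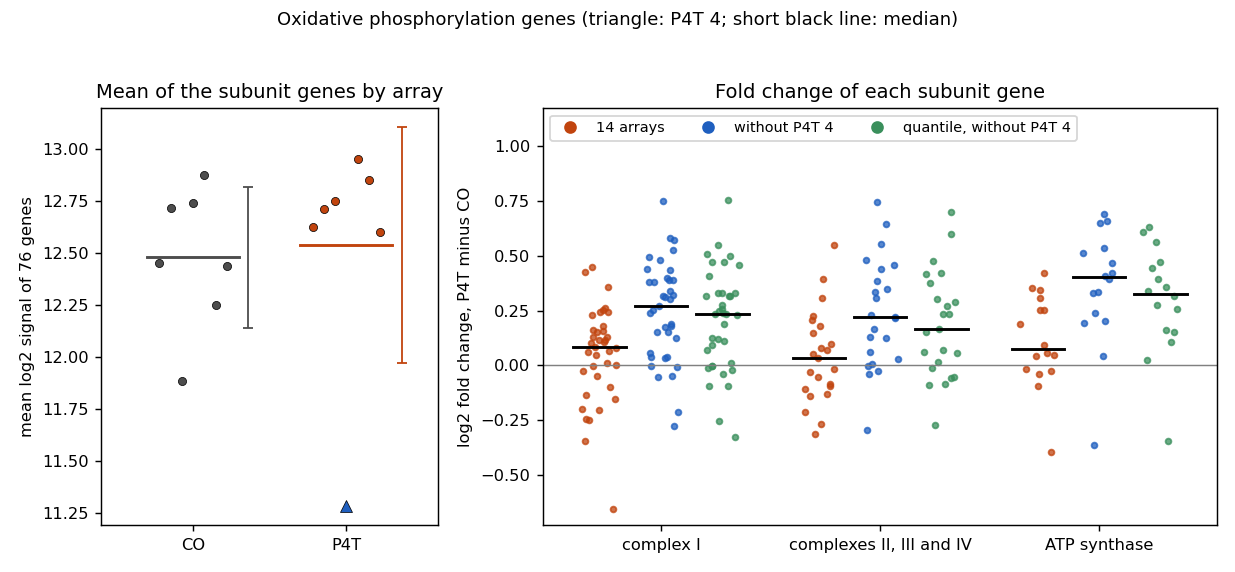
Left, mean log2 signal of the 76 oxidative phosphorylation genes on each CO and P4T array with group mean and SD; right, the log2 difference of each gene between P4T and CO by complex, with all 14 arrays, without P4T 4, and without P4T 4 after quantile normalization, and the median as a black line. P4T 4, the triangle at 11.28, lies below all other arrays, and without it the medians move from 0.08, 0.03 and 0.07 to 0.27, 0.22 and 0.40.

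Other lists of energy metabolism held few genes past the rule, which 0.612% of all genes passed as higher and 1.77% as lower. The TCA cycle list had 0 higher and 1 lower of 17 genes, and gluconeogenesis, glycolysis and glycogen 0 higher and 1 lower of 28, the lower gene being PC in both. PDK4, the kinase that switches off pyruvate dehydrogenase, had medians of 10.95 in CO and 11.70 in P4T, and its difference was 0.54 ± 0.26 (unadjusted p = 0.050). Fatty acid oxidation and ketogenesis had 0 of 21 genes past the rule, propionate to succinyl-CoA 0 of 9, and cholesterol synthesis and transport 0 of 21. Lipogenesis and triglyceride genes had 0 higher and 1 lower of 26. The lower gene was ANGPTL4, an inhibitor of lipoprotein lipase, at 8.76 to 10.14 in CO and 4.87 to 9.58 in P4T. P4T 4 was the lowest array by far, and the difference went from -1.15 ± 0.50 to -0.59 ± 0.27 without it. Without P4T 4, acetyl-CoA carboxylase (ACACA) was at -0.92 ± 0.37 and DGAT1, the last enzyme of triglyceride synthesis, at -0.45 ± 0.20. Both were then among 3 lower of 26, with 1 higher, beside 5.0% lower and 2.21% higher of all genes. Urea cycle and amino acid catabolism genes had 2 higher, OAT and GLDC, and 0 lower of 33. CYP7A1, the rate-limiting enzyme of bile acid synthesis, differed by 0.21 ± 0.35, and among 8 bile acid genes only SLC51A, a subunit of the basolateral bile acid exporter, passed, at -2.24 ± 0.70. SLC51A was dim, at 4.26 to 6.69 in CO and 1.68 to 5.02 in P4T, and with 50 added to each signal the difference was -0.79.

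The growth hormone and IGF axis had 0 of 18 genes past the rule. IGF1 spanned 9.16 to 10.20 in CO and 9.17 to 9.56 in the other P4T arrays, with P4T 4 at 10.59, and its difference was -0.12 ± 0.25, or -0.29 ± 0.21 without P4T 4. STAT5B, which carries the growth hormone signal to the nucleus, was at -0.65 ± 0.33 with all arrays and -0.76 ± 0.32 without P4T 4, and the clearance receptor IGF2R was at 0.50 ± 0.27 and 0.60 ± 0.27.

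Secreted and hepatocyte genes lay slightly lower as groups on the deposited scale. Of the 20 hepatocyte markers 19 had a difference below 0, with a median of -0.19 beside -0.03 for all genes, but 0 passed the rule. After quantile normalization their median was -0.00. ALB itself ran from 17.17 over 17.42 to 18.66 in CO and from 16.83 over 16.97 to 18.66 in P4T, and its difference of -0.32 ± 0.35 became -0.02 after quantile normalization. The plasma carrier proteins (median -0.17, 0 of 16 past the rule), the complement genes (-0.17, 0 of 23) and the coagulation genes (-0.16, 0 of 14) had similar medians, which were 0.00, -0.07 and -0.13 after quantile normalization. The acute phase proteins had a median of -0.39 with 0 of 13 past the rule, and -0.11 after quantile normalization. Without P4T 4, CD14 (0.63) was higher, and SAA3 (-0.72) and C3 (-0.63) lower, by the unadjusted rule. These were 1 higher and 2 lower of 13, beside 2.21% and 5.0% of all genes. With quantile normalization and P4T 4 left out, 0 of the 13 passed in either direction. Haptoglobin (HP), the main acute phase protein of cattle, ran from 8.71 over 13.91 to 16.79 in CO and from 8.62 over 10.80 to 16.66 in P4T. The spread of HP within each group thus exceeded the difference of -2.30 ± 1.19. LBP, which carries bacterial lipopolysaccharide, was at -0.95 ± 0.47, and SAA3, a serum amyloid, at -0.65 ± 0.34 with all 7 P4T arrays below the CO mean.

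Genes of protein folding in the endoplasmic reticulum had 0 higher and 2 lower of 19, beside 1.77% lower of all genes, with a median of -0.21. The lower genes were TXNDC11 and SDF2L1, a partner of the chaperone BiP. SDF2L1 ran from 8.17 over 10.14 to 10.56 in CO and from 8.19 over 9.28 to 9.54 in P4T, so that all P4T arrays lay below the CO mean but above the lowest CO array. Its difference was -0.80 ± 0.33. Without P4T 4, DNAJB11 (-0.65 ± 0.25) and TRIB3 (-0.50 ± 0.24) joined them, making 4 lower of 19 beside 5.0% of all genes. Cell cycle genes had 0 higher and 1 lower (PLK1) of 22, with a median of -0.35, and their mean log2 signals were low, at 7.22 to 7.99 in CO and 6.93 to 7.69 in P4T. In the antioxidant list KEAP1, the repressor of NRF2, was the only gene past the rule of 26, at -0.42 ± 0.19, and its other probe sets differed by -0.13 and -0.92. PER2, a clock gene, was the only gene of 7 in its list past the rule, beside 0.612% higher of all genes. Its difference was 0.63 ± 0.30 (unadjusted p = 0.0496), and 0.50 ± 0.30 without P4T 4. The cytosolic ribosome (59 genes, median -0.04), the proteasome (29, -0.06), immediate early genes (17, 0.11), interferon-stimulated genes (14, -0.12), other steroid receptors and chaperones (12, 0.05), and xenobiotic receptors with their targets (15, 0.02) had no gene past the rule with all arrays.

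Among markers of other cell types, endothelial markers had 2 higher and 0 lower of 13, beside 0.612% and 1.77% of all genes, with a median of 0.26. TIE1, an endothelial receptor kinase, had medians of 5.07 in CO and 7.58 in P4T, a difference of 1.56 ± 0.59, and VWF, the clotting factor stored in endothelium, medians of 3.26 and 5.43 and a difference of 1.76 ± 0.71. Both signals were low, the other VWF probe set differed by -0.99, and the list median was -0.05 when all probe sets of a gene were averaged. KDR, a receptor of vascular endothelial growth factor, differed the other way, by -1.50 ± 0.82 (unadjusted p = 0.081), at dim medians of 5.36 in CO and 4.55 in P4T. LYVE1, a marker of liver sinusoids, was brighter, at 10.68 to 12.24 in CO and 11.66 to 12.59 in the P4T arrays other than P4T 4, a difference of 0.48 ± 0.35, or 0.81 ± 0.25 without P4T 4. No marker passed with all arrays among 22 of leukocytes, 19 of stellate cells, 8 of bile ducts, 8 of erythrocytes, 9 of kidney, 13 of skeletal muscle and 8 of fat and skin. Erythrocyte markers had a mean of 4.92 to 7.03 in CO and of 5.34 to 6.08 in the other P4T arrays, and 7.67 on P4T 4. Kidney markers spanned 5.66 to 7.92 in CO and 5.28 to 6.03 in the other P4T arrays, and stood at 7.47 on P4T 4, so both dim lists were higher on that array than on the other P4T arrays.

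Of the 39 genes measured from the study's own progesterone list, 3 were higher and 7 lower by the unadjusted rule, beside 0.612% and 1.77% of all genes, and 13 and 11 without P4T 4, beside 2.21% and 5.0%. That list was chosen on these samples, and the counts are not independent evidence of its direction. They follow the direction in these arrays and were not split by the direction the study gave each gene. SLC51A stands there for a gene the study calls organic solute transporter alpha-like and reports as up-regulated by progesterone, whereas it was lower here. Besides LAD1, RHNO1, GLDC and SLC51A the list holds ADRB3, the beta-3 adrenoceptor, which ran from 7.67 over 8.46 to 9.04 in CO and from 5.40 over 7.22 to 8.02 in P4T. All 7 P4T arrays of ADRB3 lay below the CO mean and 5 below every CO array, a difference of -1.59 ± 0.45 (unadjusted p = 0.0020).

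**Figure D4:**
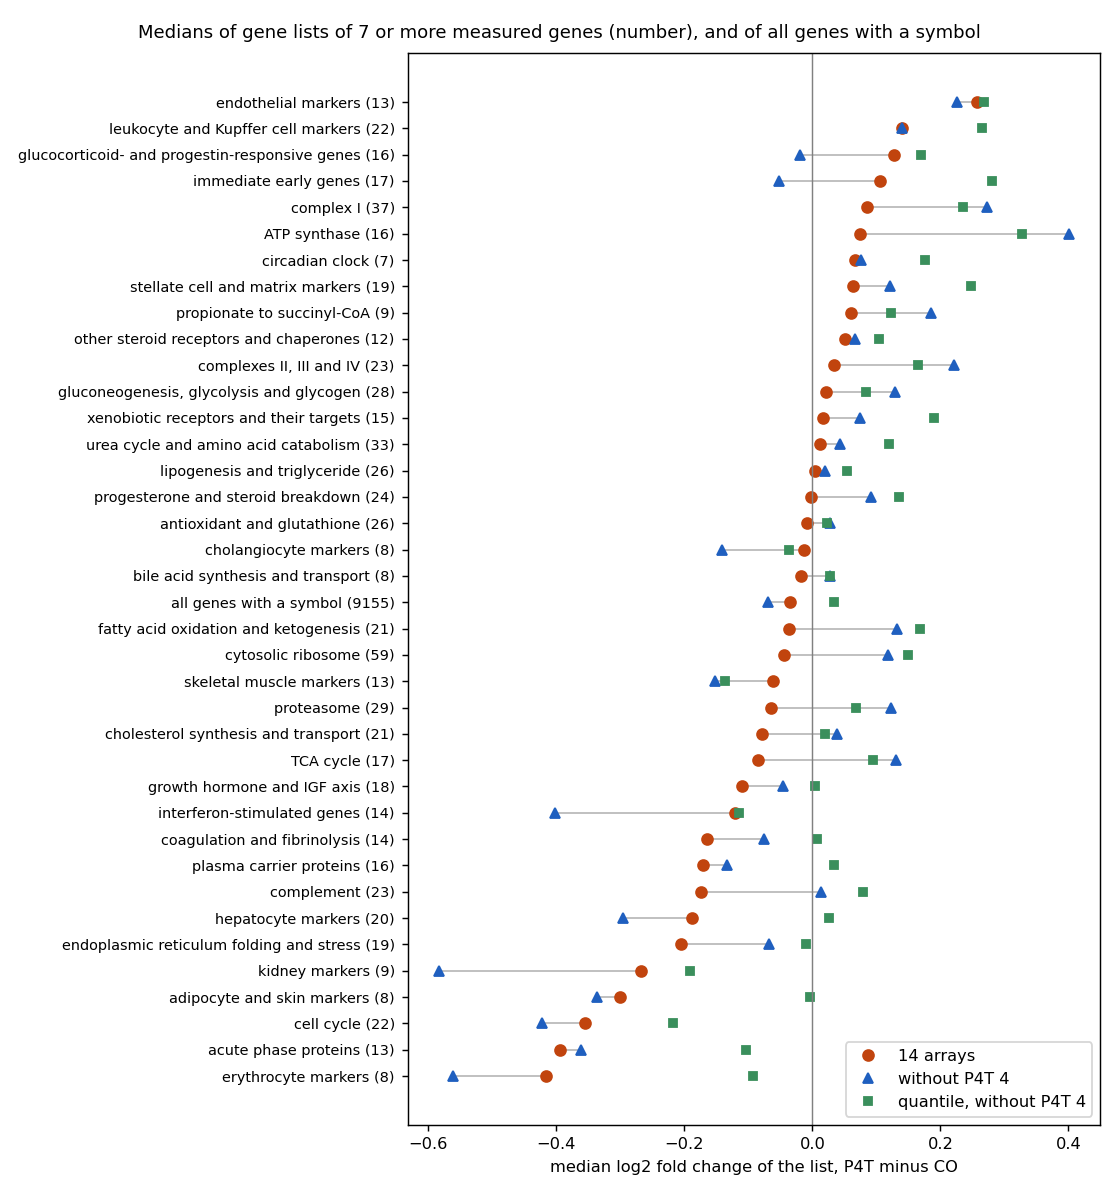
Median log2 difference between P4T and CO of each gene list with 7 or more measured genes, and of all 9155 genes, with all 14 arrays, without P4T 4, and without P4T 4 after quantile normalization. The ATP synthase moves from 0.07 to 0.40 when P4T 4 is left out, and the hepatocyte markers from -0.19 to -0.30 and, with quantile normalization as well, to 0.03.

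Progesterone was also set against estradiol directly. Between P4T and E2T, 0 probe sets passed the adjusted threshold, with a lowest adjusted p of 1.00. By the unadjusted rule 414 (1.72%) were higher and 165 (0.687%) lower in P4T, but without P4T 4 the numbers were 254 (1.06%) and 307 (1.28%). Of the 24 leading genes, 2 passed an unadjusted p under 0.05 there, PILRA at 0.42 and OAT at 0.82, both higher in P4T. P4T minus CO and P4T minus E2T share the P4T arrays, and E2T minus CO shares the CO arrays, so their values are only set side by side. For the oxidative phosphorylation genes the median was 0.30 in P4T minus CO and 0.04 in P4T minus E2T, both without P4T 4, and 0.22 in E2T minus CO.

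The comparison of E2P4T with E2T shares no array with that of P4T with CO, and shows progesterone added to estradiol. It too had 0 adjusted calls, and 427 probe sets (1.78%) were higher and 110 (0.458%) lower by the unadjusted rule. E2P4T 5 had spikes of 18.7, and without it the numbers were 263 (1.1%) and 297 (1.24%). Its mean log2 signal of hepatocyte markers was 10.1, against 15.3 to 16.1 on the other E2P4T arrays. That of kidney markers was 10.6, against 4.90 to 6.70 on the other E2P4T arrays. The cause was not tested. Of the 12 leading higher genes 4 were higher in E2P4T as well, and 8 without E2P4T 5, and of the 12 leading lower genes 2 and 7 were lower. Of all 9155 genes 5109 were higher there, and 4677 without E2P4T 5. OAT was the 1 leading gene past the unadjusted rule, higher by 1.10 with estradiol beside 0.85 without it, and by 0.76 without E2P4T 5. MAP3K14 was at -0.35, PC at 0.18, PILRA at -0.25 and LAD1 at 1.47. Without E2P4T 5, MAP3K14 was at -0.14, PC at 0.03 and PILRA at 0.002. The oxidative phosphorylation genes had a median of 0.02, or -0.03 without E2P4T 5.

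The test of the difference itself, the interaction of the 2 hormones, had 0 adjusted calls over 24016 probe sets, with a lowest adjusted p of 0.999. By the unadjusted rule 142 (0.591%) were higher and 730 (3.04%) lower in the progesterone difference without estradiol. With P4T 4 and E2P4T 5 left out the lowest adjusted p was 0.0917, and 231 were higher and 874 lower. The values of the leading genes without and with estradiol therefore cannot be called different or alike from these arrays.

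**Figure D5:**
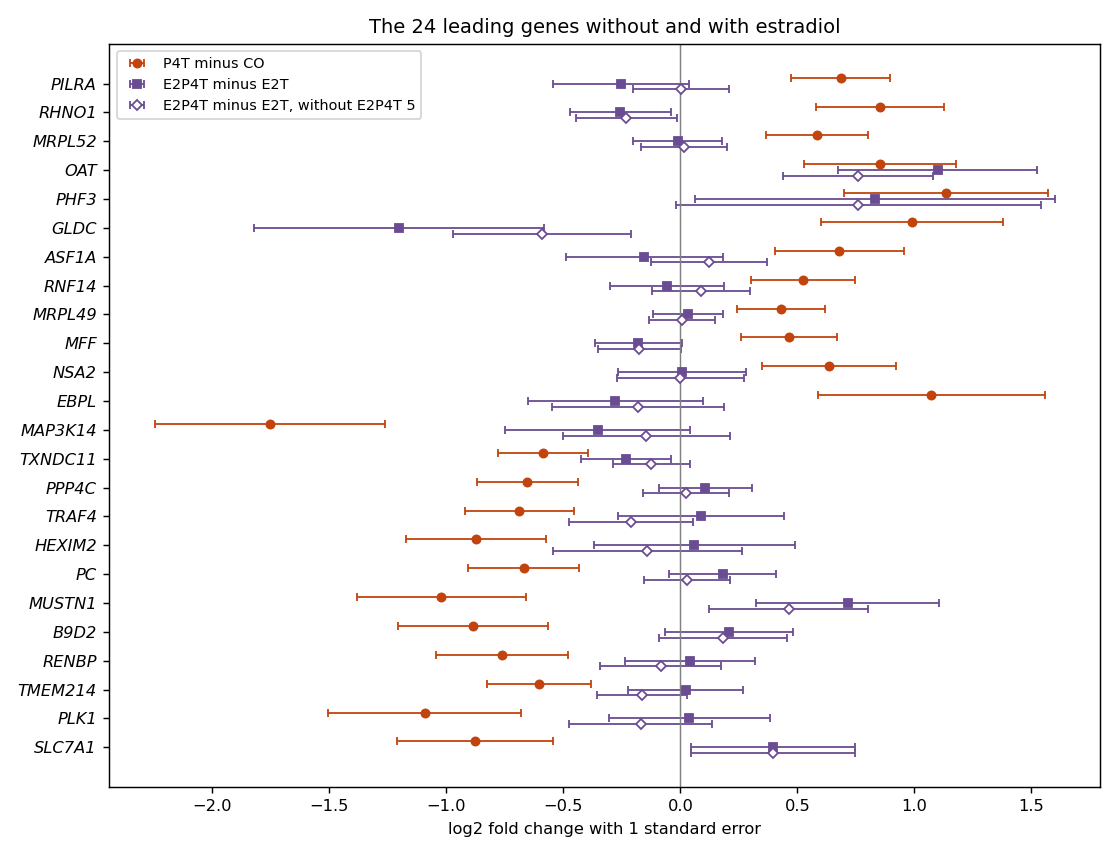
Log2 difference with 1 standard error of the 24 leading genes between P4T and CO, between E2P4T and E2T, and between E2P4T and E2T without E2P4T 5. OAT lies at 0.85, 1.10 and 0.76 and PHF3 at 1.14, 0.83 and 0.76, while MAP3K14 lies at -1.75, -0.35 and -0.14; the genes were chosen in P4T minus CO, so their distance from 0 there is a description.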

How the data were processed

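The deposited values are signal intensities on a linear scale, 1 per probe set and array, which the authors computed with MAS 5.0 from Bovine GeneChips. The table holds 24128 probe sets, of which 112 are controls, and 24016 were tested. No intensity was 0 or lower, and no detection calls were given, so the study's filter on present calls was not applied. GEO's platform annotation named 13292 probe sets with 1 symbol, 86 with several and 10638 with none, and 13263 probe sets matched RefSeq by gene ID. A gene with several probe sets was represented by the brightest on average.

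Signals were transformed to log2 without further scaling, and P4T was compared with CO in R 4.3.3 by moderated linear models of limma 3.58.1, the prior variance following the mean signal, with p-values adjusted by Benjamini and Hochberg. Differences are log2, P4T minus CO, with the standard error of the fit. The study's mixed model with cow and period was not run. The unadjusted rule (p under 0.05 and at least 1.25-fold) takes the thresholds the study used for its contrasts, without its earlier filter on the overall test, and is a description. Array-wide measures were compared by exact permutation over 3432 splits (1716 without P4T 4), with Benjamini-Hochberg adjustment over 6 measures. The marker means were compared by the same permutation without adjustment. The number of arrays limits the precision. The p-values set each difference against the spread between arrays treated as separate samples. That spread includes cow and period, which the labels do not give. The script was tested on simulated data.

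The genes named are the 12 higher and 12 lower with the lowest unadjusted p among genes above the median log2 signal of 7.66 that also passed without P4T 4, the 3 members of lowest p of each gene list, a short list of progesterone-related genes, and the 5 highest and 5 lowest probe sets; others are named where stated. The 39 gene lists and the groups were chosen with earlier results of these data known. The alternatives changed the normalization, the filter on dim probe sets, the pseudocount, the variance model, the arrays used and the replicate block. Promoter sequences were not analysed here.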

Additional observations from a re-analysis of the deposited data

Results flagged for a closer look

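A group was marked where its highest or lowest array lay far from the other 6 by Dixon's test. Over 274 groups of 7 arrays, those of 134 named genes in CO and in P4T and of array-wide measures, 41 were marked, where chance alone marks about 5%. Of the 30 in P4T, 28 were P4T 4. All values are log2 signals, and the groups share arrays.

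P4T 4 was marked as highest for the mean of the hybridisation spikes (17.8) and for the median of all probe sets (8.78). It was the highest P4T array for AHR (9.45), RENBP (10.3), ITIH3 (16.7), PROC (16.4), C4BPA (16.9), HBM (9.23), IGF1 (10.6) and ALB (18.7). It was the lowest P4T array for genes of the respiratory chain and ATP synthase, NDUFA1 (13.3), NDUFB6 (9.23), COX7A2L (10.4), COX7C (13.4) and ATP5PD (11.8), and of other mitochondrial or metabolic enzymes, OGDH (7.23), ECI2 (11.2), GBE1 (11.01) and HSD17B11 (15.3). It was also the lowest for MUSTN1 (6.31), PGRMC1 (12.1), ANGPTL4 (4.87), RPSA (12.4), RPS9 (12.7), SELENOP (14.1), PRDX2 (6.78), CD68 (10.04) and DES (5.19). The other 2 in P4T were GC, highest on P4T 2 (16.8), and HBE1, lowest on P4T 6 (4.26).

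In CO, CO 3 was marked as highest for the spikes (16.7) and for ALB (18.7), and as lowest for MRPL49 (9.76), EBPL (5.63) and NDUFB6 (9.59). CO 2 was highest for PSMB8 (12.7) and IFI44L (11.4). The lowest arrays were CO 7 for AHR (4.79), CO 6 for SDF2L1 (8.17), CO 4 for BIRC5 (4.38) and CO 1 for FKBP5 (3.31). The part of any array-wide property in these values was not tested.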

How the results depend on the processing

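No probe set passed the adjusted threshold in P4T against CO, P4T against E2T or the interaction under any setting run, while counts by the unadjusted rule moved with the arrays and the scale. For P4T against CO (173 higher and 578 lower) they were 365 and 369 after quantile normalization, 302 higher after median centring, 309 lower in the upper 75% of probe sets by maximum signal, and 76 and 148 among probe sets above the median signal. A fit of all arrays but E2P4T 5 gave 294 higher, and one without P4T 4 as well 479 and 1553. Array weights, 0.216 for P4T 4, gave 580 and 1386, and the spikes as a covariate 359 higher. Leaving out each array gave 120 to 374 higher, with 374 without P4T 4 and 298 without CO 6, and 398 to 1479 lower. Settings chosen after seeing the data gave 560 higher after quantile normalization without P4T 4, 428 higher without P4T 4, CO 3 and CO 7, and 281 lower with the numbers 1 to 4 alone. For P4T against E2T (414 and 165) they were 296 lower after quantile normalization and 246 and 91 in the upper 75%, with 254 to 788 higher and 142 to 307 lower on leaving out each array, 788 of them without E2T 3. For the interaction (142 and 730) they were 345 and 413 after quantile normalization, 421 lower in the upper 75%, 231 higher without P4T 4 and E2P4T 5, and 95 to 201 higher and 477 to 1286 lower on leaving out each array, with 477 without E2P4T 5 and 1286 without P4T 4. Causes were not tested.

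Arrays of the same replicate number did not deviate together in every pair (r from -0.04 to 0.19), so the numbers were not taken to pair them. The replicate block gave 243 higher and 575 lower for P4T against CO, the random block 216 and 708, and the block without both arrays numbered 4 581 and 1554. It gave 422 and 191 for P4T against E2T and 186 and 759 for the interaction. It changed no adjusted call. Over all settings, 1 median of a gene list moved by more than the spread and 1363 did not, and of the values of named genes 10 did and 4507 did not, the 10 being of GLDC, FGG, SLC51A, GC and VWF. Among these, GLDC took the opposite sign with the numbers 5 to 7 alone (-0.22) and FGG after quantile normalization without P4T 4 (0.05). No difference passed the adjusted test, so no call could be reversed. The files hold no detection calls, so which dim probe sets were above background is not known here.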
